A study of Mus musculus with 12 samples.

Results

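Autosomal genes were compared between the hearts of sedentary female and sedentary male mice, the difference between the sexes before any exercise. The comparison rested on 3 libraries of sedentary females and 3 of sedentary males, 6 of the 12 libraries in the series. Of the 55401 genes listed in the count table, 50957 lie on autosomes, and genes of the X and Y chromosomes and of the mitochondrial genome were dropped by rule. A filter on low counts kept 15653 autosomal genes for testing. All mice were wild type and of the inbred strain C57BL/6J. Sedentary mice of the same age as the runners stayed caged for 6 weeks, and the training of the exercised mice was treadmill running of 45 min a day, 5 days a week, at a speed of 1 km/h. The 3 exercised females and 3 exercised males served as 6 other libraries in which the same sex difference could be read. Their counts also entered the estimate of the spread behind the sedentary p-values, since all 12 libraries were fitted together. RNA came from bulk heart tissue. No source used here gives the age in weeks, the part of the heart taken or the library kit. The labels do not say in words that each library is 1 animal, and the p-values reflect only how far these libraries spread, which may be technical.

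The adult heart makes most of its ATP by burning long-chain fatty acids in mitochondria. Acyl groups are activated with coenzyme A, carried across the inner membrane by the carnitine shuttle, cut down in the spiral of beta-oxidation and oxidised further in the citric acid cycle. The sexes share their autosomes, and sex hormones and factors encoded on the sex chromosomes are the known routes by which autosomal genes come to differ. In liver, growth hormone pulses and the factor STAT5 are the known route to many such differences.

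All 12 libraries matched their sex labels. Xist, the RNA behind X inactivation, lay between 141 and 191 CPM (counts scaled to the size of the library) in females and between 0.236 and 1.53 CPM in males, and the Y-linked Ddx3y at 76.2 CPM or more in males and at 1.08 CPM or less in females. A library held between 22204349 and 32566240 counts. The libraries differed in the tissue they held. Myl7 and Sln, transcripts of atrial muscle, stood at 65.6 and 25.4 CPM in female sedentary 1 and at 23 and 7.90 CPM in female sedentary 2. As a whole, the 10 atrial markers summed to between 949 and 1256 CPM in sedentary females and between 857 and 874 CPM in sedentary males, with 8 of 9 tested members above 0 and Bmp10 at 0 in all sedentary females. Myl7 and Sln were at no more than 1.52 CPM in female sedentary 3 and the sedentary males. Haemoglobin transcripts followed the same libraries: 7 erythroid markers summed to 3611 and 1738 CPM in female sedentary 1 and 2, to 34.3 CPM in female sedentary 3 and to between 8.11 and 43.3 CPM in the males. Female exercised 2 also carried atrial transcripts, with Myl7 at 107 CPM. Defining ventricular genes were high in every library, and their 11 markers summed to between 69701 and 71852 CPM in sedentary females and between 72924 and 80886 CPM in sedentary males.

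At an adjusted p under 0.05 by the quasi-likelihood test of edgeR, with Benjamini-Hochberg adjustment over all genes, which is the test behind every adjusted p given here, 336 autosomal genes differed (2.15% of those tested). In 127 the level was higher in females (0.811%) and in 209 lower (1.34%). Log2 differences, always female minus male, had a median of 0.55 among the higher genes and -0.39 among the lower ones, and 22 higher and 14 lower genes passed 1 on that scale. The lower genes were the more abundant, with a median of 82.2 CPM against 16.8 CPM. Of the 336, 325 code for protein, and they were spread over all 19 autosomes, from 1.06% of the tested genes on chromosome 12 to 3.0% on chromosome 4. In all 336 the 3 female libraries lay entirely to one side of the 3 male libraries. That was so for 1899 tested genes on the higher side (12.1%) and 2023 on the lower side (12.9%), most of which did not pass.

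The number of calls rested on few libraries. Without the 3 libraries that held atrial transcripts, 1 sedentary female was left, assumed to vary like the other groups, and 7 genes passed: C7, Hsd11b1, Tmem150c, Fyco1 and Vwa8 lower, Tmem119 and Ifitm3 higher. Over the 336 genes the difference was in the median 1.04 times its full value without these libraries. It was 1.01 times with an atrial score as a covariate (78 calls) and 1.04 times with a haemoglobin score (93 calls). The genes were chosen for passing, all without overlap, in libraries that these fits share. Neither the sizes nor the direction of their differences was therefore tested by this. Leaving out 1 library gave 93 calls without female sedentary 1, 82 without female sedentary 2, 115 without female sedentary 3, 118 without male sedentary 1, 219 without male sedentary 2 and 53 without male sedentary 3. It gave 206 without female exercised 1 and 215 without female exercised 2. Of 101 genes picked for naming that passed, 32 passed without each of the 12 libraries in turn, 22 of them lower and 10 higher. These 101 were picked largely for a small p, and the share over all 336 genes is not given here.

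**Figure D1:**
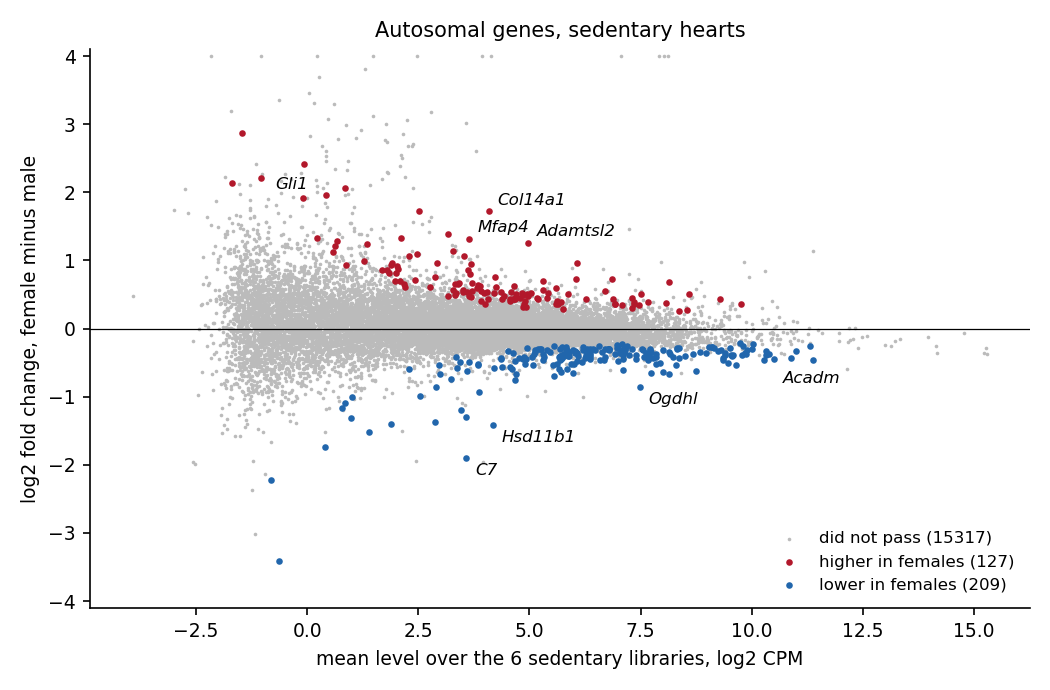
Each point is an autosomal gene, with its mean level over the 6 sedentary libraries in log2 CPM on the horizontal axis and its log2 fold change, female minus male, on the vertical axis. Coloured points are the 127 genes higher and the 209 genes lower in females; the lower genes sit further to the right, at a median of 82.2 CPM, and 11 grey points beyond 4 on the log2 scale are drawn at the edge.

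C7, lower in females, had the smallest p of all autosomal genes. C7 encodes a terminal component of complement that helps to build the membrane attack complex (chromosome 15, 4988762 to 5063740, minus strand). Its levels were 5.46, 4.75 and 4.91 CPM in females 1 to 3 and 18.9, 22.4 and 15.4 CPM in males 1 to 3, so that every male library was far above every female one, and the log2 difference was -1.91 ± 0.15 (SE; adjusted p = 1.02e-05). Of 15 tested complement genes it was the 1 that passed. Hsd11b1, the enzyme that regenerates active glucocorticoid inside cells (chromosome 1, 193221634 to 193264075, minus strand), was at 11.4, 9.86 and 8.18 CPM in females and 27.5, 26.0 and 25.3 CPM in males. The groups were far apart, with a log2 difference of -1.42 ± 0.15 (adjusted p = 0.000227). Tmem150c, a membrane protein gene (chromosome 5, 100077872 to 100159808, minus strand), was at 7.42, 6.64 and 5.79 CPM against 17.0, 11.8 and 16.9 CPM and differed by -1.20 ± 0.14 (adjusted p = 0.000608). Acsl6, an acyl-CoA synthetase that activates long-chain fatty acids (chromosome 11, 54303798 to 54364756, plus strand), stood at 9.46, 9.55 and 11.0 CPM in females. In males it stood at 18.8, 19.6 and 19.1 CPM, a narrow band well above the females, and the difference was -0.94 ± 0.09 (adjusted p = 0.000159). Without the 3 libraries with atrial transcripts, these 4 differences were -1.95, -1.69, -1.40 and -0.80, the last with an adjusted p of 0.0794.

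Genes that burn fatty acids were lower in females as a group. Of 29 tested genes of fatty acid uptake and oxidation, 17 passed, all lower (58.6%, against 1.34% of all genes on that side), and 28 of the 29 lay below 0, with a median log2 difference of -0.36 beside 0.01 over all tested genes. The 29 genes summed to 22288, 21077 and 20791 CPM in the sedentary females and 26236, 26422 and 29247 CPM in the males. Female sedentary 3 was the lowest of the 6, and the part of other tissue in these sums was not tested. At the entry of the pathway, Fabp3, the fatty acid carrier of heart muscle, was at 2411, 2141 and 2196 CPM in females and 2933, 2898 and 3429 CPM in males, a difference of -0.46 ± 0.09 (adjusted p = 0.0230). Acsl1, the main long-chain acyl-CoA synthetase of the heart, differed by -0.38 ± 0.07 (adjusted p = 0.0162). Cd36, the uptake receptor, was at 1565, 1533 and 1341 CPM in females and 1686, 1890.2 and 2189 CPM in males and did not pass (-0.38 ± 0.10, adjusted p = 0.0630).

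In the carnitine shuttle, 3 genes passed. Slc25a20, the carrier that swaps acylcarnitine for carnitine across the inner membrane (chromosome 9, 108662088 to 108684641, plus strand), was at 177, 159 and 162 CPM in females and 267, 245 and 269 CPM in males. It had the widest difference of the list, -0.65 ± 0.09 (adjusted p = 0.00446). Cpt2, which hands the acyl group back to coenzyme A inside, differed by -0.46 ± 0.09 (adjusted p = 0.0186), and Crat, the acetyl exchanger, by -0.36 ± 0.06 (adjusted p = 0.0129). Cpt1b, the muscle form of the outer gatekeeper, was at 11.8, 11.4 and 8.97 CPM in females and 12.7, 13.6 and 12.3 CPM in males, and its difference of -0.26 ± 0.12 did not pass (adjusted p = 0.265). Its level was low for heart muscle in every library, which leaves its value uncertain, and the difference ran from -0.33 to -0.15 with 1 library left out and was -0.52 without the 3 libraries with atrial transcripts.

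The dehydrogenase, hydroxyacyl and thiolase steps of the spiral all held genes that passed. Acadm, the medium-chain acyl-CoA dehydrogenase (chromosome 3, 153922357 to 153944632, minus strand), was at 1244, 1202 and 1214 CPM in females and 1655, 1591 and 1728 CPM in males. The 3 females spanned a narrow band below all males, and the difference of -0.44 ± 0.05 had the smallest p of the list (adjusted p = 0.00102). The dehydrogenases for other chain lengths, Acadvl, Acadl and Acads, differed by -0.39 ± 0.08, -0.30 ± 0.06 and -0.29 ± 0.06. Hadha and Hadhb, the subunits of the trifunctional protein that takes long chains through the later steps, differed by -0.44 ± 0.08 and -0.34 ± 0.06. Hadh, which oxidises shorter hydroxyacyl chains, was at 569, 534 and 548 CPM against 752, 730.4 and 789.9 CPM and differed by -0.46 ± 0.07 (adjusted p = 0.00449). Acaa2, the thiolase that releases acetyl-CoA, differed by -0.54 ± 0.10 (adjusted p = 0.0120).

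Enzymes that serve unsaturated chains and the exit of electrons were lower too. Decr1, the dienoyl-CoA reductase for unsaturated fatty acids, was at 357, 330.1 and 329 CPM in females and 490.1, 481 and 594 CPM in males, with a difference of -0.62 ± 0.09 (adjusted p = 0.00400). Ech1, an isomerase for such chains, differed by -0.46 ± 0.09 (adjusted p = 0.0162). Etfdh passes electrons from acyl-CoA dehydrogenases to ubiquinone. It was at 614, 584 and 551 CPM in females and 783, 797 and 893 CPM in males, all females below all males, and differed by -0.50 ± 0.07 (adjusted p = 0.00457). Its electron donor Etfa differed by -0.26 ± 0.05 (adjusted p = 0.0284). Outside the list, Acsm5, a medium-chain acyl-CoA synthetase, was at 5.42, 3.85 and 2.92 CPM against 9.39, 11.0 and 11.3 CPM (-1.37 ± 0.22, adjusted p = 0.00819).

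The count of fatty acid genes that passed depended on the libraries, while the median moved less. It was 10 without female sedentary 1, 7 without female sedentary 2 or female sedentary 3 and 5 without male sedentary 3, and 0 without the 3 libraries with atrial transcripts, where the median was -0.45 and 28 of 29 genes lay below 0. With the atrial score as a covariate 6 passed at a median of -0.36, and with the haemoglobin score 10 at -0.45. The 11 markers of ventricular muscle, the cells richest in this pathway, lay below 0 in 9 cases with a median of -0.07, and none of them passed. In bulk tissue, fewer cells of a type and less RNA per cell cannot be told apart.

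The next stages of fuel burning shifted the same way by smaller amounts. Of 24 genes of the citric acid cycle and pyruvate dehydrogenase, a list added after the data were seen, 11 passed, all lower (45.8%), and all 24 lay below 0, with a median of -0.23. They summed to between 17898 and 18105 CPM in females and between 20307 and 21246 CPM in males. Cs, citrate synthase, which opens the cycle, was at 1144, 1120.0 and 1150.1 CPM in females and 1424, 1402 and 1461 CPM in males. The spread within each sex was small beside the gap, and the difference was -0.33 ± 0.05 (adjusted p = 0.00819). Ogdhl, a relative of the oxoglutarate dehydrogenase subunit (chromosome 14, 32322019 to 32348151, plus strand), was at 137, 112 and 130.0 CPM in females and 215, 237 and 238 CPM in males. It had the widest gap of the list, at -0.86 ± 0.10 (adjusted p = 0.000608).

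Smaller differences that passed were those of Sucla2 and Suclg1, subunits of succinyl-CoA ligase (-0.38 ± 0.07 and -0.29 ± 0.06), and Dlst, the core of the oxoglutarate dehydrogenase complex (-0.31 ± 0.05). In the pyruvate dehydrogenase complex these were Pdhx (-0.34 ± 0.07), Dlat (-0.28 ± 0.06), the shared subunit Dld (-0.28 ± 0.06) and Pdhb (-0.22 ± 0.05). Pdpr, a regulator of pyruvate dehydrogenase phosphatase, was at 33.6, 41.0 and 33.3 CPM against 57.0, 53.0 and 64.2 CPM and differed by -0.69 ± 0.12 (adjusted p = 0.00987). Its exons overlap an antisense gene, which leaves its value uncertain, since the strand setting of the counting is not given. The count of 11 was 7 without male sedentary 2, 5 without female sedentary 3 or male sedentary 1, 4 without female sedentary 2, 3 without male sedentary 3 and 2 without female sedentary 1, 1 with either the atrial or the haemoglobin score as a covariate and 0 without the 3 libraries with atrial transcripts, where the median was -0.26.

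**Figure D2:**
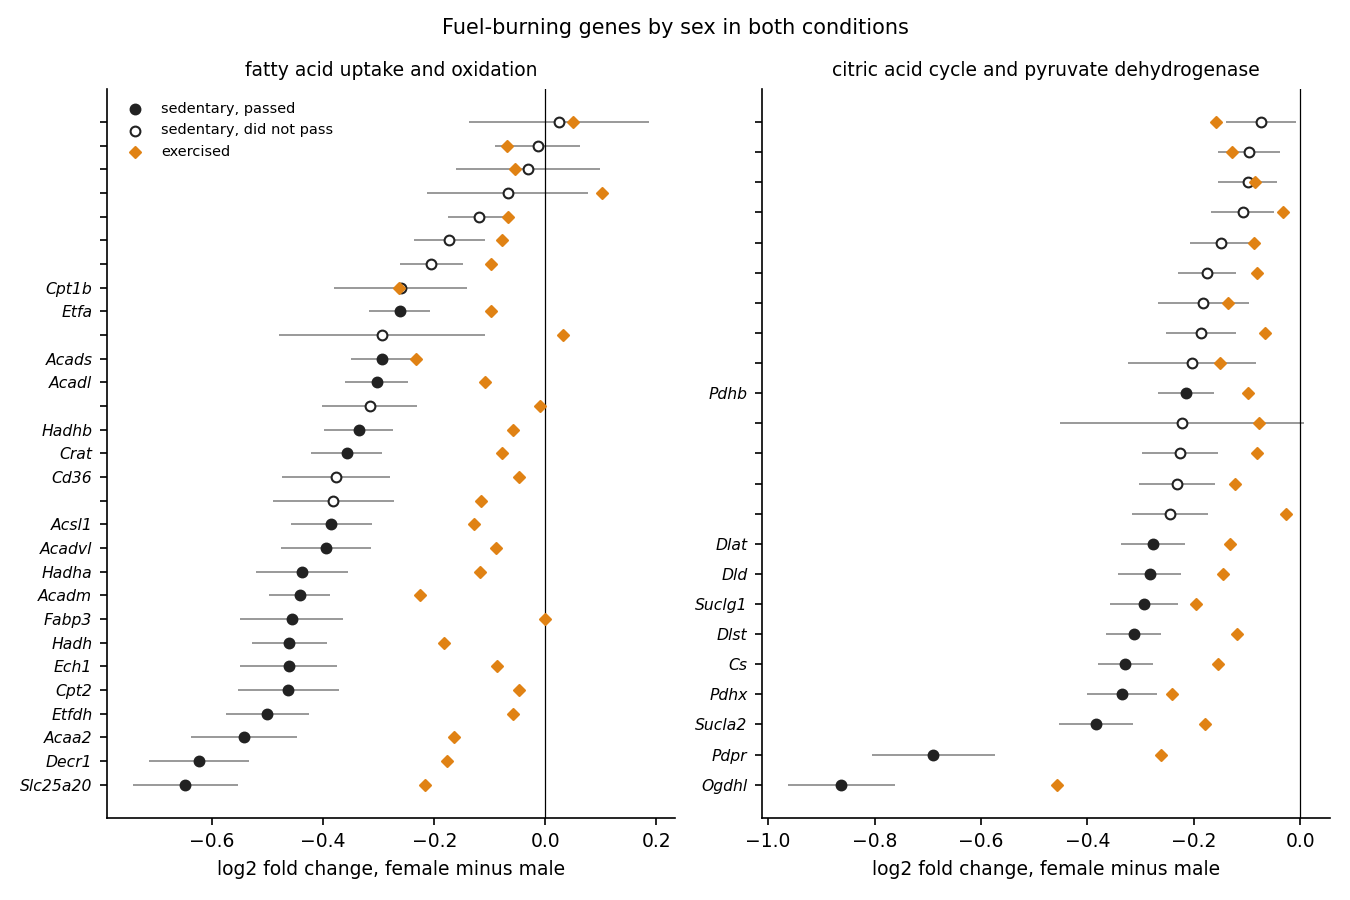
Log2 fold change, female minus male, of 29 tested genes of fatty acid uptake and oxidation (left) and 23 of the 24 of the citric acid cycle and pyruvate dehydrogenase (right) on the horizontal axis, with names for genes described in the text. Circles are sedentary hearts with their SE, filled where the gene passed (17 and 10), and orange diamonds are the same difference in exercised hearts; sedentary values lie below 0 for all genes shown but 1, with medians over the whole lists of -0.36 and -0.23, and exercised values have medians of -0.09 and -0.13.

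Branched-chain amino acid breakdown, which feeds the same cycle, had 5 of 22 genes lower (22.7%, against 1.34% of all genes on that side). Of the 22, 19 lay below 0, with a median of -0.23. Dbt, the core of the branched-chain ketoacid dehydrogenase, was at 70.7, 72.8 and 69.8 CPM in females and 91.1, 92.0 and 96.6 CPM in males, with a difference of -0.39 ± 0.06 (adjusted p = 0.00819). The other genes were Mut, methylmalonyl-CoA mutase (-0.32 ± 0.06), Ivd, isovaleryl-CoA dehydrogenase (-0.35 ± 0.07), Aldh6a1 (-0.38 ± 0.08) and Dld. Acat1, the thiolase of ketone body and isoleucine breakdown, differed by -0.41 ± 0.06 (adjusted p = 0.00457). The count was 3 without male sedentary 1, 2 without female sedentary 3 or male sedentary 2 and 1 without female sedentary 1 or female sedentary 2 or male sedentary 3 and 0 without the 3 libraries with atrial transcripts.

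Other fuel lists did not show calls at that rate. Of 45 nuclear genes of the respiratory chain 2 passed, both lower (4.44%, against 1.34% of all genes on that side). They were Cycs, cytochrome c (-0.32 ± 0.07), and Ndufs1 of complex I (-0.28 ± 0.06), whose exons overlap those of Eef1b2 on the other strand. The median of that list was -0.08, and 0 passed without female exercised 2 or without any sedentary library other than male sedentary 2, and 1 without female exercised 1. None of 22 genes of glucose uptake and glycolysis passed (median -0.03), the smallest p being those of Pkm (-0.23 ± 0.06, adjusted p = 0.0679) and Hk2 (-0.32 ± 0.09, adjusted p = 0.0873). None of 26 PPAR targets and lipid droplet genes passed either (median -0.04). Their regulators were at 24.4, 27.9 and 18.3 CPM in females and 31.6, 30.3 and 32.3 CPM in males for Ppara (-0.41 ± 0.13, adjusted p = 0.120), and at 106, 72.8 and 87.1 CPM and 158, 121 and 125 CPM for the coactivator Ppargc1a (-0.60 ± 0.18, adjusted p = 0.109). Pdk4, the kinase that shuts pyruvate dehydrogenase, ranged from 292 to 762 CPM in females and from 254 to 657 CPM in males, with full overlap (0.09 ± 0.52).

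Calcium handling had 6 genes lower of 35 tested (17.1%, against 1.34% of all genes on that side), 26 below 0 and a median of -0.17. Of the 6, 3 belong to the calcium store of the sarcoplasmic reticulum. Casq2, calsequestrin, which buffers calcium there, was at 806, 836 and 797 CPM in females and 1059, 959.6 and 1096 CPM in males, a difference of -0.35 ± 0.06 (adjusted p = 0.00967). Its partners triadin (Trdn) and the histidine-rich calcium buffer Hrc differed by -0.42 ± 0.08 and -0.37 ± 0.07. At the surface membrane, the channel subunit Cacna2d1 differed by -0.44 ± 0.08 and the sodium-calcium exchanger Slc8a1 by -0.37 ± 0.08, and the kinase gene Camk2g by -0.30 ± 0.06. Ryr2, the release channel, did not pass at 1063, 1073 and 864 CPM against 1217, 1214 and 1496 CPM (-0.39 ± 0.10, adjusted p = 0.0630). It passed with the atrial score (-0.55, adjusted p = 0.0275) and with the haemoglobin score (-0.62, adjusted p = 0.0273) as a covariate. Atp2a2, the calcium pump, its inhibitor Pln and the channel Cacna1c gave -0.13 ± 0.07, -0.05 ± 0.09 and -0.20 ± 0.09 without passing. The count of 6 was 3 without female sedentary 3, 2 without female sedentary 2 or male sedentary 3 and 1 without female sedentary 1, 2 with either covariate (Cacna2d1, 1 of the 6, and Ryr2) and 0 without the 3 libraries with atrial transcripts.

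Ion channels of the action potential differed in single genes. Kcnj3, a subunit of the acetylcholine-gated potassium channel that is rich in atria, was at 49.2, 53.5 and 48.6 CPM in females and 72.6, 71.9 and 72.6 CPM in males. It was lower in all 3 females (-0.52 ± 0.09, adjusted p = 0.00875). The difference was -0.58 with the atrial score as a covariate (adjusted p = 0.0263) and -0.58 without the 3 libraries with atrial transcripts. The part of atrial content in this difference was not tested further. Kcne1, the accessory subunit of the slow delayed rectifier (chromosome 16, 92345982 to 92359468, minus strand), was the 1 potassium channel gene of 31 that was higher, at 6.52, 10.3 and 9.50 CPM in females and 3.09, 1.95 and 2.88 CPM in males (1.73 ± 0.38, adjusted p = 0.0457). Of 16 genes of sodium and pacemaker channels and connexins, the sodium channel gene Scn4a passed. It was at 23.1, 20.4 and 16.8 CPM in females and 34.6, 28.3 and 33.3 CPM in males (-0.67 ± 0.16, adjusted p = 0.0464). The last 2 calls were each lost without 9 of the 12 libraries left out in turn. The channels of transient outward current gave -0.55 ± 0.20 for Kcnd2, -0.41 ± 0.12 for Kcnd3 and 0.11 ± 0.11 for Kcnip2, and none passed. Kcnh2 (0.31 ± 0.19), Kcna5 (0.03 ± 0.27), Kcnj2 (-0.04 ± 0.30) and the connexin Gja1 (-0.04 ± 0.12) did not pass either.

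Among the other lower genes of smallest p, Vwa8, a mitochondrial ATPase (chromosome 14, 78849052 to 79202310, plus strand), was at 237, 217 and 199.8 CPM in females and 341, 329 and 364 CPM in males (-0.66 ± 0.08, adjusted p = 0.000608). Psme4, a proteasome activator, was at 202, 206 and 199 CPM against 302, 294 and 347 CPM (-0.63 ± 0.07, adjusted p = 0.000608). In both genes all 3 females lay below all 3 males. Fyco1, an adaptor that moves autophagosomes along microtubules, differed by -0.53 ± 0.07, Fsd2 by -0.43 ± 0.06 and Etfrf1, a regulator of electron transfer flavoprotein whose exons overlap a gene on the other strand, by -0.59 ± 0.09. In the list of xenobiotic and steroid enzymes 2 of 35 were lower (5.71%, against 1.34% of all genes on that side). They were the glutathione transferase Gsta4 (-0.48 ± 0.07) and the epoxide hydrolase Ephx2 (-0.52 ± 0.09). Genes singled out after their values were seen included 2 kinases of nutrient sensing, Mtor (-0.36 ± 0.07) and the AMPK subunit Prkaa2 (-0.31 ± 0.07), and the desmosomal protein Dsp (-0.39 ± 0.09). The chemokine gene Ccl11 was at 1.77, 2.71 and 1.55 CPM against 4.04, 6.64 and 5.29 CPM (-1.40 ± 0.33). The adjusted p was 0.0142 for Mtor, 0.0460 for Prkaa2, 0.0489 for Dsp and 0.0460 for Ccl11. Of the 12 fits with 1 library left out, Mtor passed in 9, Prkaa2 and Dsp in 3 each and Ccl11 in 2. Prkaa2, Dsp and Ccl11 also lost their calls with either covariate, and all 4 without the 3 libraries with atrial transcripts.

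On the higher side, extracellular matrix genes were one of the groups that held calls. Of 36 extracellular matrix genes 8 passed, all higher (22.2%, against 0.811% of all genes on that side), 32 lay above 0 and the median was 0.26. Col14a1, a collagen that binds to the surface of collagen fibrils (chromosome 15, 55307750 to 55520803, plus strand), was at 26.5, 27.6 and 23.8 CPM in females and 8.07, 8.80 and 6.71 CPM in males. Every female was far above every male, with a log2 difference of 1.72 ± 0.21 (adjusted p = 0.00256). Mfap4 and Adamtsl2 are not members of that list and were higher too. Mfap4, a protein of elastic microfibrils (chromosome 11, 61485431 to 61488900, plus strand), was at 21.7, 14.6 and 16.7 CPM in females and 6.19, 8.46 and 6.66 CPM in males (1.32 ± 0.17, adjusted p = 0.00196). Its exons overlap Mapk7 on the other strand. Adamtsl2, a secreted protein of the microfibril network (chromosome 2, 27079379 to 27108981, plus strand), was at 54.2, 38.4 and 40.0 CPM against 18, 19.4 and 18 CPM (1.26 ± 0.19, adjusted p = 0.00921). It lost its call without male sedentary 3.

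Further genes of the matrix list differed by less. Lum, the small proteoglycan lumican, was at 87.3, 73.1 and 85.8 CPM in females and 48.8, 50.2 and 49.5 CPM in males (0.73 ± 0.13, adjusted p = 0.0162). Fbln1, fibulin 1, was at 119, 121 and 128 CPM and 79.8, 94.5 and 77.9 CPM (0.55 ± 0.08, adjusted p = 0.00363). Mgp, an inhibitor of calcification, was at 111, 78.5 and 76.5 CPM and 46.3, 42.5 and 48.2 CPM (0.96 ± 0.19, adjusted p = 0.0304), with the highest value in the female library richest in atrial transcripts. Postn, a protein of activated fibroblasts, fibronectin (Fn1), Col8a1 and Col6a2 differed by 0.70 ± 0.13, 0.53 ± 0.10, 0.54 ± 0.11 and 0.36 ± 0.08. Col1a1, the main fibrillar collagen chain, was at 89.7, 100 and 87.0 CPM in females and 68.2, 77.5 and 67.9 CPM in males and did not pass (0.37 ± 0.11, adjusted p = 0.104). Also outside the list, Ecm1 (0.46 ± 0.08), the secreted Fibin (0.86 ± 0.15), the intermediate filament Vim (0.68 ± 0.12) and the Wnt inhibitor Frzb (0.96 ± 0.21) were higher.

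Most fibroblast markers were higher in females too. The 10 markers summed to between 2591 and 2977 CPM in sedentary females and between 2200 and 2346 CPM in sedentary males, 7 of the 10 were higher without overlap between the sexes (beside 12.1% of all tested genes), and Lum, itself a marker, was the 1 that passed. Their median was 0.34, with 2 of the 10 below 0. Most of each sum was Gsn, itself higher without overlap. Pdgfra, Dcn and Col1a2 overlapped between the sexes. Pdgfra was at 46.3, 44.2 and 38.3 CPM in females and 44.5, 37.6 and 47.1 CPM in males. For Dcn the levels were 502, 420 and 423 CPM against 446, 447 and 452 CPM. Valve and cartilage markers summed to 63.0, 40.0 and 26.4 CPM in sedentary females and between 18.3 and 28.3 CPM in sedentary males, with 7 of 8 tested above 0, and mesothelial or epicardial markers to 27.7, 27.0 and 76.7 CPM and between 24.6 and 40.7 CPM, with 9 of 10 above 0. The part of these 3 marker lists in the matrix differences was not tested. The 8 matrix calls became 4 without female sedentary 3, 3 without female sedentary 2 or male sedentary 1 and 2 without female sedentary 1 or male sedentary 3, 2 with either covariate and 0 without the 3 libraries with atrial transcripts, where the median was 0.28.

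Gli1, the transcription factor that both carries and reports the Hedgehog signal (chromosome 10, 127329882 to 127341974, minus strand), was at 1.92, 2.48 and 2.03 CPM in females and 0.415, 0.677 and 0.567 CPM in males. The groups were well apart at this low level (1.95 ± 0.28, adjusted p = 0.00425), and its exons overlap those of Arhgap9 on the other strand. In a list of 13 Hedgehog genes added after the data were seen, 12 lay above 0 with a median of 0.31. Of the 13, 2 passed, both higher and Gli1 among them (15.4%, against 0.811% of all genes on that side). The count of 2 was 1 without female sedentary 1 or female sedentary 2 or male sedentary 1 or male sedentary 2 or male sedentary 3 and 0 without the 3 libraries with atrial transcripts. The median was 0.20 with 9 of 13 above 0 without female sedentary 2, and 0.19 without the 3 libraries. With RLE scaling 10 of the 13 lay above 0. Phlda3, a p53 target that restrains Akt, had the smallest p on the higher side, at 16.7, 16.7 and 17.4 CPM in females and 10.1, 8.88 and 7.23 CPM in males (0.95 ± 0.11, adjusted p = 0.000798). The mitochondrial Bola1 (0.62 ± 0.10), the amino acid carrier Slc38a1 (1.14 ± 0.20), the membrane protein gene Tmem119 (1.10 ± 0.22) and the lysosomal protease Ctsz (0.52 ± 0.08), whose exons overlap Nelfcd, were also higher.

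Interferon-stimulated genes were another group on the higher side. Of 30 tested, 8 passed, all higher (26.7%), all 30 lay above 0 and the median was 0.45. They summed to 505, 586 and 557 CPM in the females and 368, 386 and 496 CPM in the males. Irf7, the factor that amplifies type I interferon (chromosome 7, 141262706 to 141266481, minus strand), was at 13.9, 17.4 and 15.3 CPM in females and 7.73, 7.78 and 6.80 CPM in males, clear of each other (1.06 ± 0.16, adjusted p = 0.00532). Its exons overlap Phrf1 on the other strand. Oasl2, of the oligoadenylate synthetase family, was at 14.3, 15.8 and 18.4 CPM against 9.32, 8.50 and 10.1 CPM (0.79 ± 0.13, adjusted p = 0.00874), and its relative Oas1a at 4.94, 4.95 and 4.68 CPM against 3.21, 3.09 and 2.65 CPM (0.70 ± 0.16). Ifit1 and Ifit2, which bind foreign RNA, differed by 1.06 ± 0.23 and 0.61 ± 0.13, and Isg15, a ubiquitin-like modifier, by 0.93 ± 0.23. Stat2 and Irf9, the partners in the factor that turns these genes on, differed by 0.49 ± 0.11 and 0.43 ± 0.10, and Irf9 shares exon sequence with Rnf31 on the same strand. Outside the list, Ifitm3, a membrane block to viral entry, was at 53.5, 53.4 and 68.4 CPM in females and 38.7, 39.5 and 37.8 CPM in males (0.59 ± 0.10, adjusted p = 0.00874). Ifi27l2a (1.39 ± 0.26) and Lgals3bp (0.56 ± 0.09) were higher too.

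The factor that holds Stat2 and Irf9 is known to bind the interferon-stimulated response element, which was searched for in the promoters. The window ran from 250 bases before the annotated start to 50 after it, in RefSeq's GRCm38.p6 table, and the 250 bases before the start are printed 5′ to 3′ on the gene's strand for 2 interferon genes and 1 antigen presentation gene that passed. Capitals mark the interferon-stimulated response element, searched on both strands and read here on the strand opposite to the gene. Ifit1 (chr19:34640639-34640888, plus strand) holds it 104 and 85 bases before the start, Stat2 (chr10:128270248-128270497, plus strand) 222 bases before and the class I histocompatibility gene H2-T23 (chr17:36032702-36032951, minus strand) 124 bases before.
Ifit1: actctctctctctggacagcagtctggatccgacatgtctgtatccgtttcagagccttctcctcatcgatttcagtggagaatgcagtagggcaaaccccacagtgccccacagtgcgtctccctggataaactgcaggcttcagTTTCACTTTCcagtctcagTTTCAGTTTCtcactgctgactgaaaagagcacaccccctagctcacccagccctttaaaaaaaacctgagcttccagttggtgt
Stat2: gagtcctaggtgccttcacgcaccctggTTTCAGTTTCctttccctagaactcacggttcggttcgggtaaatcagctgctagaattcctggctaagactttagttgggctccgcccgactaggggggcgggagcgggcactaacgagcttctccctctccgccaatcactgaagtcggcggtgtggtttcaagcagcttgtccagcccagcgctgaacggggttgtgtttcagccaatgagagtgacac
H2-T23: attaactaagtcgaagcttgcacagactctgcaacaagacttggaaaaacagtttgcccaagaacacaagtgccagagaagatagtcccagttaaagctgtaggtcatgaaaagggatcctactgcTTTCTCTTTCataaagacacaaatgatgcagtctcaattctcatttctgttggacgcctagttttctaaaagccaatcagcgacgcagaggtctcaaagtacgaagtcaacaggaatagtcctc
The element, chosen after the data were seen, was found in 3.44% of 32851 promoters. It was found in 12 of 118 promoters of genes higher in females (10.2%) and 3 of 198 of genes lower in females (1.52%). These promoters belong to 94 and 153 genes. In the interferon list it was found in 14 of 26 (53.8%). The higher genes include the 8 genes of the interferon list that passed, so the 2 shares are not separate. How many of the 12 belong to that list was not counted, and nothing is read from the 10.2% about the other higher genes. A match is letters in a window and no measure of binding.

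Antigen presentation had 2 of 22 genes higher (9.09%, against 0.811% of all genes on that side), with a median of 0.23. The count was 1 without female sedentary 1, without female sedentary 3 or with the haemoglobin score, and 0 without female sedentary 2, male sedentary 1, male sedentary 2 or the 3 libraries with atrial transcripts and with the atrial score. H2-T23 was at 34.5, 34.9 and 32.3 CPM in females and 25.5, 23.9 and 27.6 CPM in males (0.40 ± 0.08, adjusted p = 0.0164), a value that is uncertain because its class I relatives are close in sequence. The immunoproteasome subunit Psmb8 was at 12.3, 14.1 and 13.9 CPM against 8.53, 8.50 and 10.3 CPM (0.56 ± 0.13, adjusted p = 0.0343). Immune cell markers stood beside these. The 14 macrophage markers summed to between 299 and 393 CPM in sedentary females and between 232 and 351 CPM in males. The 10 markers of T or natural killer cells summed to between 11.7 and 18.2 CPM and between 8.90 and 11.0 CPM. Most of each of the latter sums was Thy1 alone, at 9.95, 13.9 and 14.8 CPM in females and 7.13, 8.92 and 7.42 CPM in males. Only 2 of these 10 markers passed the filter on low counts. The part of immune cells in the interferon difference was not tested. The 8 interferon calls became 5 without female sedentary 1, 4 without male sedentary 3 and 2 without female sedentary 2 or female sedentary 3 or male sedentary 1 or male sedentary 2, 3 with either covariate and 0 without the 3 libraries with atrial transcripts, where the median was 0.56.

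**Figure D3:**
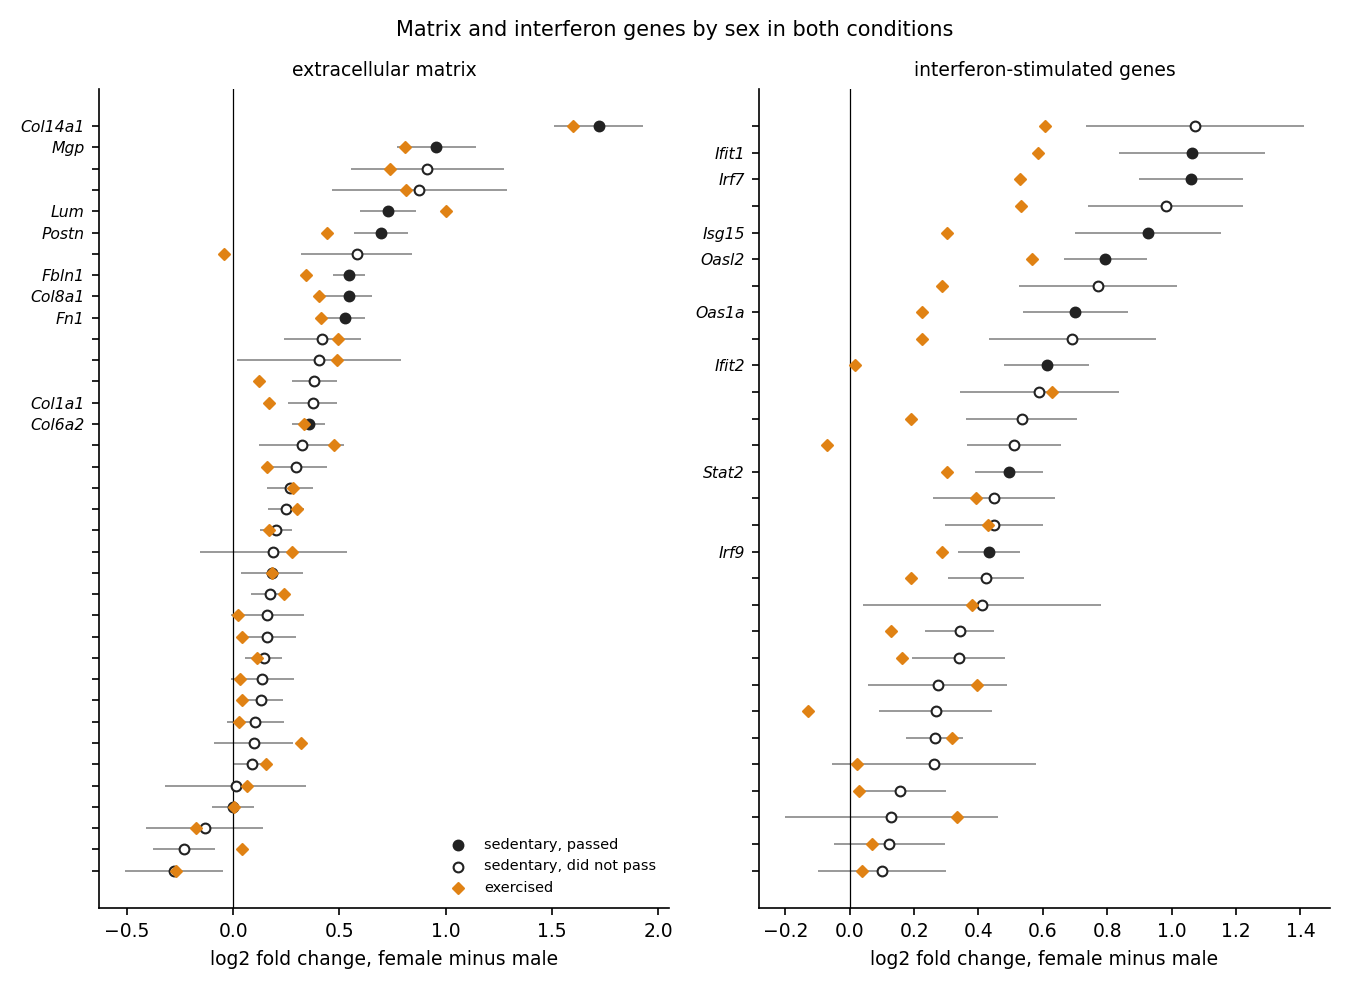
Log2 fold change, female minus male, of 36 tested extracellular matrix genes (left) and 29 of the 30 interferon-stimulated genes (right), with names for genes described in the text. Circles are sedentary hearts with their SE, filled for the 8 genes of each list that passed, and orange diamonds are exercised hearts; sedentary medians over the whole lists are 0.26 and 0.45 and exercised medians 0.21 and 0.29.

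Growth and stress genes gave few calls. Of 25 immediate early genes, which respond to stimuli and handling within minutes, all lay above 0 with a median of 0.38, and the phosphatase gene Dusp1 was the 1 that passed, at 701, 746 and 718 CPM in females and 455, 585 and 563 CPM in males (0.43 ± 0.11, adjusted p = 0.0489). Without male sedentary 1 the median was 0.22, with 23 of the 25 above 0. Dusp1 kept its call without each of 3 libraries in turn and lost it without the other 9. Dusp1 overlaps exons of Ergic1 and also counted as the 1 of 23 glucocorticoid-responsive genes. Of 74 ribosomal protein genes, a list added after the data were seen, 71 lay above 0 with a median of 0.22. In this list 8 genes passed, all higher (10.8%, against 0.811% of all genes on that side). Among them were Rpl3 (0.39 ± 0.08), Rps16 (0.35 ± 0.08) and Rps14 (0.26 ± 0.06). Their many pseudogene copies make these values uncertain, and between 0 and 3 of the 8 passed without any 1 of the 6 sedentary libraries or the 3 exercised female ones. Of 19 genes of cardiac load and the fetal programme 1 passed, Postn, with a median of 0.17. That median was 0.045 without female sedentary 1 and 0.38 without female sedentary 2. Postn lost its call without female sedentary 1 or 2 or male sedentary 1 or 3, with either covariate and without the 3 libraries with atrial transcripts. Nppa, the atrial natriuretic peptide, was at 222, 196 and 249 CPM in females and 58.2, 133 and 52.1 CPM in males and did not pass (1.46 ± 0.42, adjusted p = 0.119). Myh7, the slow myosin, was at 1281, 1706 and 1883 CPM in females and 826, 877 and 1004 CPM in males (0.85 ± 0.25, adjusted p = 0.119). In both genes the sexes did not overlap. With 1 library left out, the difference ran from 1.22 to 2.01 for Nppa and from 0.728 to 0.995 for Myh7. Each gene passed in 1 of these 12 fits. Nppa did so without male sedentary 2, its highest male (2.01 ± 0.36, adjusted p = 0.0399), and Myh7 without male exercised 2 (0.85 ± 0.15, adjusted p = 0.0239). Myh6 (-0.07 ± 0.08) and Nppb (0.47 ± 0.44) overlapped.

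Hormone lists held few calls. Of 23 steroid and thyroid hormone receptors and cofactors 2 passed, both lower (8.70%, against 1.34% of all genes on that side). They were Hsd11b1 and the corepressor Ncor1 (-0.30 ± 0.07, adjusted p = 0.0343), the second with exons that overlap Ttc19. Esr1, the oestrogen receptor alpha, was at 0.753, 0.786 and 0.795 CPM in females and 0.415, 0.169 and 0.331 CPM in males and did not pass (1.33 ± 0.39, adjusted p = 0.0933). The glucocorticoid receptor Nr3c1 gave -0.18 ± 0.09. No gene passed among 14 oestrogen-responsive genes (median 0.11, Nos3 at 0.33 ± 0.10 and Igfbp4 at 0.23 ± 0.07), 14 androgen-responsive genes (median 0.14, Herc3 at -0.39 ± 0.11 and Srm at 0.55 ± 0.17), 15 genes of growth hormone and STAT5 signalling (median 0.18, Ghr at -0.18 ± 0.08 and Stat5a at 0.19 ± 0.10) or 11 autosomal relatives of sex-linked genes (median -0.02, Ube2q2 at -0.13 ± 0.07 and Tspyl1 at -0.16 ± 0.09). None passed among 20 clock genes (median -0.02, Rora at -0.27 ± 0.09, Arntl at -0.26 ± 0.57 and Dbp at 0.54 ± 0.81) or 22 heat shock proteins and chaperones (median -0.07, Hspd1 at -0.28 ± 0.07 and Hspa9 at -0.25 ± 0.06).

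Hormone response elements were searched in the same promoter windows. The oestrogen receptor element was in 0.07% of all promoters and the androgen and glucocorticoid receptor element in 0.0091%, and neither was in the 118 and 198 promoters of the higher and lower genes. The STAT5 element TTCNNNGAA was in 8.30% of all promoters, 8.47% of those of higher and 8.59% of those of lower genes, and the E-box CACGTG in 7.15%, 3.39% and 5.05%. The promoter of C7, the gene with the smallest p, is printed because it holds a STAT5 element, in capitals, 164 bases before the start (chr15:5063774-5064023, minus strand, 250 bases before the start).
C7: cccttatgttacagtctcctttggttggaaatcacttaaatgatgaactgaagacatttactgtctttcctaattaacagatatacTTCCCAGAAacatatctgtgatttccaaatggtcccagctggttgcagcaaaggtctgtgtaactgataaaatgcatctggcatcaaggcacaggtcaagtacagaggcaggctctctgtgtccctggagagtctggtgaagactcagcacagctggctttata
Such a match is as frequent over all promoters as over those of the genes that differed.

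The same sex difference was then read in the exercised hearts, 6 other libraries that shared the fit and its estimate of the spread. There 15 autosomal genes passed (0.0958%), 9 higher (0.0575%) and 6 lower (0.0383%), and 1533 stood at an unadjusted p under 0.05 (9.79%, beside 18.4% in the sedentary hearts). Of the 15, 11 had also passed in the sedentary hearts, 73.3% of the exercised and 3.27% of the sedentary calls, and all 11 had the same sign. They were C7, Hsd11b1, Acsl6 and Tmem150c on the lower side and Col14a1, Mfap4, Adamtsl2, Gli1, Lum, Tmem119 and Rpl3 on the higher side. C7 was at 5.08, 5.04 and 5.87 CPM in exercised females and 22.1, 26.8 and 29.9 CPM in exercised males (-2.30 ± 0.15, adjusted p = 9.53e-07). Hsd11b1 was at 12.8, 8.24 and 11.6 CPM against 27.7, 31.7 and 29.4 CPM (-1.44 ± 0.14, adjusted p = 0.000166), and Col14a1 at 17.9, 27.0 and 29.9 CPM against 9.69, 5.76 and 9.20 CPM (1.60 ± 0.21, adjusted p = 0.00772). The gaps in these 3 were of the size seen in the sedentary hearts. Adamtsl2 gave 1.45 ± 0.19, Mfap4 1.18 ± 0.17, Gli1 1.52 ± 0.27, Lum 1.00 ± 0.13 and Acsl6 -0.68 ± 0.09. The 4 genes that passed in exercised hearts and not in sedentary ones were Pmp22 (0.45 ± 0.08), Cnmd (-2.29 ± 0.39), Serpinf1 (0.65 ± 0.12) and Sox12 (-0.75 ± 0.14). In sedentary hearts the first 3 had the same sign and lay just above the threshold. Their values there were 0.33 ± 0.08 (adjusted p = 0.0515), -1.52 ± 0.39 (adjusted p = 0.0573) and 0.43 ± 0.12 (adjusted p = 0.0710). Sox12 gave -0.03 ± 0.14 (adjusted p = 0.926).

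Of the 336 genes, 324 (96.4%) had the same sign in exercised hearts, beside 64.0% of all tested genes, and 172 had it with an unadjusted p under 0.05 while 0 had the opposite sign at that level. Their differences there had medians of 0.32 for the higher and -0.16 for the lower genes. Genes chosen for passing in one set of libraries tend to lie nearer to 0 in another, and nothing is read from that gap. The fatty acid list had a median of -0.09 with 26 of 29 genes below 0 and 0 calls in exercised hearts, the citric acid cycle list -0.13 with 24 of 24, the matrix list 0.21 with 33 of 36 above 0 and the interferon list 0.29 with 28 of 30. Fabp3 was at 2747, 2559.9 and 2528 CPM in exercised females and 2960.4, 2286 and 2595 CPM in exercised males, groups that overlapped (-0.0011 ± 0.09). Etfdh was at 719, 705 and 697 CPM against 802, 676 and 729 CPM (-0.06 ± 0.07), with overlap as well.

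The change of the sex difference between conditions was tested itself. By edgeR's quasi-likelihood test with adjustment over all genes, 0 autosomal genes passed (0.0%) and 743 stood at an unadjusted p under 0.05 (4.75%). Voom of limma called 0 and DESeq2 9: Vwa8, Fyco1, Etfdh, Mut, Srl, Acta2, Eif4ebp1, Cpxm2 and C130080G10Rik. Without female exercised 3 edgeR called 1, Eif4ebp1. Vwa8 had a change of 0.56 ± 0.11 (adjusted p = 0.906), from -0.66 ± 0.08 in sedentary to -0.11 ± 0.08 in exercised hearts. No gene was shown by edgeR's test to differ between the sexes in 1 condition more than in the other.

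**Figure D4:**
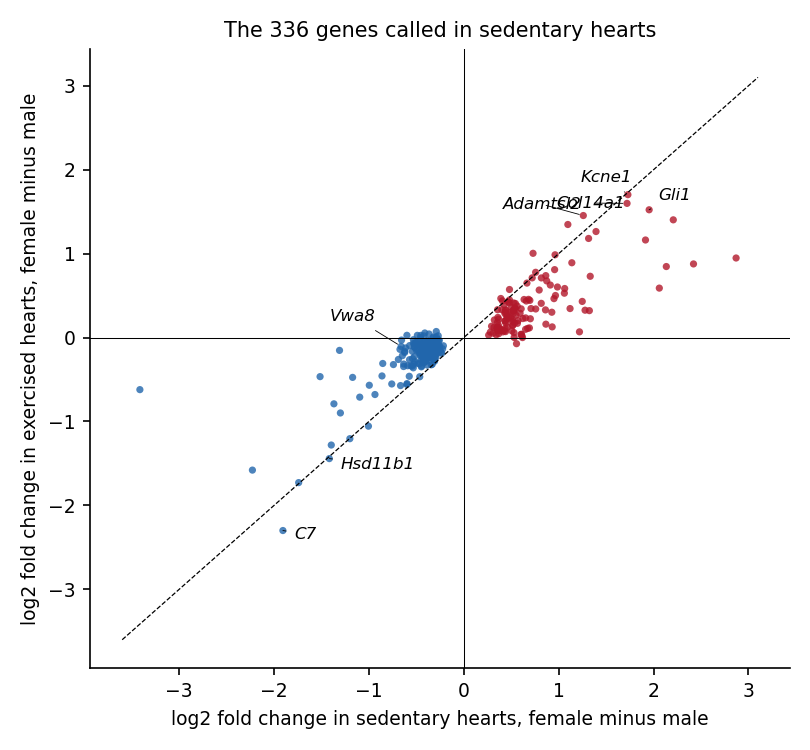
Log2 fold change, female minus male, in sedentary hearts (horizontal axis) and exercised hearts (vertical axis) of the 336 genes that passed in sedentary hearts, higher genes in red and lower genes in blue; the dashed line marks equal values. Of these genes 324 share their sign, and the medians on the vertical axis are 0.32 and -0.16; the genes were chosen by their values on the horizontal axis, so a smaller vertical value is not read as a change.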

How the data were processed

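RNA was sequenced from bulk mouse heart in 12 libraries, 3 per sex and condition, grouped by the labels. The authors deposited 1 table of raw counts of reads per gene, not normalized. The tools named in the submitters' processing notes are Trimmomatic 0.36, STAR 2.5.2b and Subread 1.5.2 (featureCounts), with the build GRCm38. Neither the annotation release nor the strand setting is given by any source used here. Of the 55401 identifiers, 54349 matched GENCODE M21 (GRCm38) with their version and 55141 without it, and 260 had no chromosome. Coordinates are from that annotation, counted from 1. The 37 mitochondrial genes had no count in 11 libraries, while female sedentary 2 had 27.3% of its counts there, and totals without them reached at most 26607844. Replicates differed by more than sampling noise (chi-square per degree of freedom 9.45 to 35.6), and each library was taken as 1 replicate.

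Counts were fitted in R 4.3.3 with edgeR 4.0.16: filterByExpr (16213 genes kept, 15653 autosomal), TMM scaling and the robust quasi-likelihood test on group means over all 12 libraries (8 residual degrees of freedom). P-values were adjusted by Benjamini-Hochberg over all 16213 genes at 0.05, and only then were autosomal genes kept. The median SE of a log2 difference was 0.14. CPM were scaled by the TMM library size without mitochondrial genes. SE is the size of the log2 difference over the root of F. The same fit gave the exercised contrast and the change between conditions. The procedure was also run on simulated counts, whose outcome is not reported here.

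The members, gene lists and tests were chosen with earlier results of these data known, and the lists of the citric acid cycle, Hedgehog genes and ribosomal proteins and the interferon element were added after the data were seen. Genes were named by rule: the 15 of smallest p in each direction that passed without overlap and have a settled symbol, up to 4 passing members of each of 23 pathway lists or else its 2 of smallest p, and a panel of 29 genes. Some genes picked this way are not reported here. Of these, some list members, the further genes of exercised hearts and those said to be singled out were chosen after their values were seen, as were members of a list beyond the first 4. Lists are described by counts and medians, with no test. The 17 marker lists are given as summed CPM where they stand beside a result.

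Alternatives were RLE and upper quartile scaling, a stricter filter (CPM above 1 in 3 libraries), no filter, DESeq2 1.42.0, limma 3.58.1 voom, spread without robustness, an adjusted p under 0.1, autosomal genes only, no pseudogenes, an atrial score as a covariate, no libraries with atrial transcripts, the compared groups only and each library left out. A haemoglobin score as a covariate was added after the data were seen. Promoters are from RefSeq's GRCm38.p6 table, where 247 of the 336 genes that passed had an entry.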

Additional observations from a re-analysis of the deposited data

Results flagged for a closer look

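Counts on the mitochondrial genome, which the comparisons did not use, were present in 1 library alone. They held 27.3% of the counts of female sedentary 2 and were at 0 in the other 11 libraries, the sedentary males included. The 37 genes did not pass the low-count filter, and library sizes were taken without them. Without female sedentary 2, 82 autosomal genes passed in the sedentary hearts.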

How the results depend on the processing

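The 336 calls in sedentary hearts stayed within 1.5 times under RLE (339) and upper quartile scaling (316), both filters, voom (418), spread without robustness (270), autosomal genes only (312), no pseudogenes (391) and the sedentary libraries alone (239). They were 830 with DESeq2 and 783 at an adjusted p under 0.1, 78 with the atrial score as a covariate, 93 with the haemoglobin score, 7 without the 3 libraries with atrial transcripts and from 53 to 440 with 1 library left out. The 15 calls in exercised hearts were 31 without a filter, 153 with DESeq2, 27 at an adjusted p under 0.1, 9 with autosomal genes only, 6 with the exercised libraries alone and from 8 to 42 with 1 library left out. The change between conditions had 9 calls with DESeq2 and from 0 to 1 with 1 library left out. The cause of these moves was not tested. A like number of calls need not mean the same genes. Of the 239 calls with the sedentary libraries alone, 191 were among the 336. In that fit 80 of the 101 genes picked for naming kept their call.

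Of the 101 genes picked for naming that passed, 101 kept the call with RLE scaling and DESeq2, 99 with upper quartile scaling, 36 with the atrial score, 38 with the haemoglobin score and 7 without the 3 libraries. None of them turned its direction in any setting, but the absence of overlap between the sexes fixes it when libraries are left out. The direction of these genes was thus not tested by this. Values that turned were all far from passing. With the atrial score, the haemoglobin score and without the 3 libraries they were -0.48, -0.79 and -0.52 for Dbp, 0.023, 0.0098 and 0.10 for Pln and 0.064, 0.18 and 0.23 for Gja1. Arntl was at 0.26 and 0.48 with the atrial and haemoglobin scores, Pdk4 at -0.10 with the haemoglobin score and -0.13 without the 3 libraries, and Kcnj2 and Kcna5 at 0.024 and -0.040 with voom. With 1 library left out they ran from -0.18 to 1.16 for Dbp, -0.13 to 0.047 for Pln, -0.45 to 0.0074 for Arntl, -0.21 to 0.087 for Gja1, -0.10 to 0.075 for Sox12, -0.37 to 0.43 for Pdk4, -0.23 to 0.14 for Kcnj2 and -0.16 to 0.12 for Kcna5. No paired analysis was possible because the labels give the groups no shared replicate numbers. Depth limits the genes of lowest level, such as Gli1 and Esr1, whose SE were 0.28 and 0.39 beside a median of 0.14.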
